A study of Mus musculus with 10 samples.

Results

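The C1q/TNF-related proteins (CTRPs) are secreted relatives of adiponectin. The family was taken as every gene of the deposited table whose symbol begins with C1qtnf, which gave 9 of the 56748 genes: C1qtnf1, C1qtnf2, C1qtnf3, C1qtnf4, C1qtnf5, C1qtnf6, C1qtnf7, C1qtnf9 and C1qtnf12. RNA sequencing was performed on primary adipocytes differentiated in culture from the stromal vascular fraction of inguinal fat of male mice aged 6 to 8 weeks. The question was how loss of Fam20c, a Golgi kinase that phosphorylates secreted proteins, changed the transcripts of these cells. The 5 control libraries came from mice with floxed Fam20c and no Cre, and the 5 Ad-Fam20c–KO libraries (KO) from floxed mice that also carried a constitutive Adiponectin-Cre. Both groups carried the floxed allele on a C57BL/6J background, and no Cre-only group was included, so the deletion and the Cre transgene cannot be told apart. Adiponectin-Cre is driven by an adipocyte promoter, and Fam20c was not measured by cell type here. The labels do not say whether each library was a separate mouse or culture, and the tests below then measure only the spread between these libraries. The study describes fewer samples per group for this experiment than the table holds, so a library of each group may lie outside its own analysis, and all libraries of the table were used here.

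Libraries held 18949106 to 26237825 counted fragments in the control group and 19883101 to 23291792 in the KO group. Levels are in CPM, the counts of a gene divided by the library total after scaling by the trimmed mean of M-values (TMM). Fam20c itself was at 10.2 ± 1.29 CPM in control libraries and 7.30 ± 0.449 CPM in KO libraries (mean ± SD, n = 5 each), a log2 fold change of -0.49 (SE 0.0929, edgeR adjusted p = 0.0137), and each of the 5 KO libraries lay below all 5 control libraries. Of 14270 genes with enough counts to be tested, 309 passed an adjusted p limit of 0.05, which is 2.17%. Of these, 265 (1.86%) were lower and 44 (0.308%) higher in KO. The adipocyte identity of the cultures was measured by 10 marker genes, of which 0 passed the test (edgeR). Their summed level was 36570 to 37680 CPM in control and 37985 to 40241 CPM in KO libraries, so every KO sum lay above every control sum. Most of the sum was Fabp4, at a mean of 20805 CPM in control and 22552 CPM in KO libraries.

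Most CTRPs share a signal peptide, a collagen-like stalk and a globular C1q domain at the C terminus, which folds as a trimer. The stalk is a run of Gly-X-Y triplets, and its prolines and lysines are modified in the endoplasmic reticulum before secretion. In adipose tissue several family members are adipokines, hormones by which fat cells act on liver, muscle, vessel wall and heart, and some act through AMP-activated protein kinase (AMPK).

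Family members differ in the length of the collagen-like stalk in their coding sequence. The 72 bases below open the longest run of glycine triplets in the coding sequence of each of 5 members (GENCODE M21, GRCm38, coding strand, 5′ to 3′). They are shown because these 5 members were measured well enough to be compared between the groups, and capitals mark the glycine codon (GGN) at the start of every triplet.
C1qtnf9, codons 86 to 109: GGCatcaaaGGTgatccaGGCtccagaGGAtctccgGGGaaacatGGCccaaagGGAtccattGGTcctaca
C1qtnf7, codons 45 to 68: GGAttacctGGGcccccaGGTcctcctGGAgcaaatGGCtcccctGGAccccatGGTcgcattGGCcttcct
C1qtnf6, codons 83 to 106: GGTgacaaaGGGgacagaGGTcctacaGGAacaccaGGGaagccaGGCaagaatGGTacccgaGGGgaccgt
C1qtnf1, codons 99 to 122: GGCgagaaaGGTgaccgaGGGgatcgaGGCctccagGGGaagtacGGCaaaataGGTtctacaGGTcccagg
C1qtnf12, codons 94 to 117: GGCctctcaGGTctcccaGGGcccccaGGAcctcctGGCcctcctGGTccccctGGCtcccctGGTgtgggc

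Counted in frame from the start codon as 1, C1qtnf9 held 56 such triplets in 2 runs, together 50.5% of its 333 codons. Its longest run was of 37 triplets. C1qtnf2 and C1qtnf7 each held a run of 34 triplets, and C1qtnf3 and C1qtnf5 each held a run of 23. C1qtnf1 and C1qtnf6 each held 14. C1qtnf12 held 8, which is 7.79% of its 308 codons, and all 8 are in the stretch above. C1qtnf4 held no run of 5 or more, and its protein is known for tandem C1q domains with no collagen stalk. The C1qtnf9 stretch lies within 1 exon at chr14:60779278-60779349 on the plus strand, that of C1qtnf7 at chr5:43609172-43609243 on the plus strand, and that of C1qtnf12 at chr4:155964771-155964842 on the plus strand. The C1qtnf6 stretch spans 2 exons between positions 78525328 and 78527228 of chromosome 15 on the minus strand, and that of C1qtnf1 spans 2 exons between positions 118446640 and 118447871 of chromosome 11 on the plus strand. No stretch of 50 bases was shared between the transcripts of any members, so reads of 1 member do not match another over that length.

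Across the family, transcripts of C1qtnf9 were 3.87-fold lower in KO than in control libraries, C1qtnf6 was 1.32-fold lower, and the most abundant member, C1qtnf12, was at nearly the same level in both groups. Of the 9 members, 6 had enough counts to be tested, and 2 of these 6 (C1qtnf9 and C1qtnf6) were called lower, against 1.86% of all genes tested. No member was called higher (0 of 6, edgeR; 1697 of all genes tested had an unadjusted p under 0.05, and DESeq2 and limma voom also called 0 members higher), against 0.308% of all genes. All 5 KO libraries lay below all 5 control libraries for 1 of the 6 members (2.66% of all genes) and above them for 0 (1.31% of all genes). The median log2 fold change of the 6 was -0.15, beside -0.00085 for all genes tested. The family was chosen by its gene names with the KO against control fold changes of these libraries already known, and every C1qtnf gene was kept whatever its value, so these values describe the members and no p is attached to them. The panels of CPM by library show each of the 8 members that had counts.

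**Figure D1:**
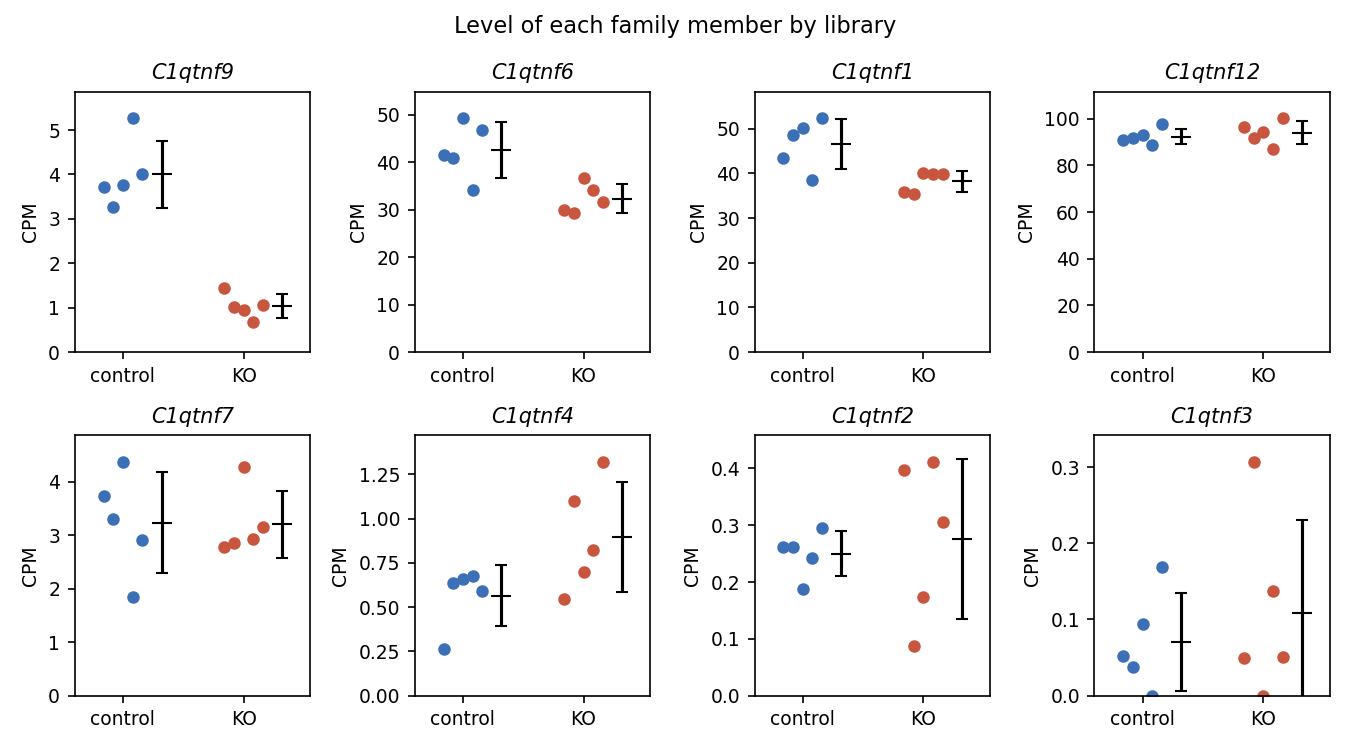
CPM of 8 family members in each of the 5 control (blue) and 5 KO (red) libraries, with the mean and SD as a black bar; each panel has its own linear axis from 0. C1qtnf9 is the panel in which the 2 groups lie furthest apart, at 3.26 to 5.27 CPM in control and 0.687 to 1.44 CPM in KO, while the C1qtnf12 groups overlap around means of 92.3 and 94.0 CPM.

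C1qtnf9 encodes CTRP9, the family member closest to adiponectin and one known for vasorelaxant and cardioprotective actions. The gene lies at chr14:60768134-60780869 on the plus strand and has 4 exons. Control libraries 1 to 5 held 71, 87, 80, 109 and 95 fragments of it, and KO libraries 1 to 5 held 29, 23, 22, 15 and 21. In CPM these were 3.72, 3.26, 3.76, 5.27 and 4.02 in control and 1.44, 1.01, 0.960, 0.687 and 1.07 in KO. Control 4 was the highest and KO 4 the lowest, and each of the 5 KO libraries lay below all 5 control libraries. The means were 4.01 ± 0.757 and 1.03 ± 0.270 CPM (SD, n = 5 each), a log2 fold change of -1.95 (SE 0.188, 95% interval -2.36 to -1.55). This was the lowest log2 fold change among the 14270 genes tested, at low counts. Leaving out any single library left the gene called lower in 10 of 10 fits, with a log2 fold change of -2.09 to -1.83.

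An antisense gene, Mipepos, overlaps C1qtnf9 in GENCODE M21, but the 2 share 0 exonic bases and Mipepos had 0 counts in all 10 libraries. None of the 1854 stretches of 50 bases in the C1qtnf9 transcripts occurs in a transcript of another gene. The 250 bases upstream of the C1qtnf9 start, from RefSeq on GRCm38.p6, are shown because this is the member whose groups lay furthest apart.
C1qtnf9 upstream, chr14:60767884-60768133, plus strand: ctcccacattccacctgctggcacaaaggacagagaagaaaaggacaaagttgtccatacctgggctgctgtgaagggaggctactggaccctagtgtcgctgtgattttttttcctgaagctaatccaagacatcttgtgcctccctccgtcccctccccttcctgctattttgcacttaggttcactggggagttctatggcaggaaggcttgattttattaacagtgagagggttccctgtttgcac

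The window had 2 CpG dinucleotides, beside a median of 6 over 32851 windows of the same length. Searched on both strands, it held no match to TATAAA (present in 12.4% of all windows), CACGTG (6.02%), AGGTCA (14.02%), TTGCGCAA (0.164%), CCGGAAGT (2.88%) or AACAATG (3.29%), so no letters are in capitals. A missing match says only that these letters are not in this window. RefSeq windows were at hand for 6 of the 9 members, and among the other 5 the C1qtnf3 window held 1 TATAAA and the C1qtnf2 window 1 CACGTG.

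Most markers of endothelial cells, which line blood vessels, were lower in KO, as C1qtnf9 was. Of 20 endothelial markers tested, 16 were lower and 0 higher in KO (edgeR adjusted p limit 0.05), with a median log2 fold change of -1.22, and none was at 0 in all libraries. Over all genes tested, 1.86% were called lower and 0.308% higher. The list was chosen with earlier results of these data known. Pecam1, an endothelial adhesion molecule, was at 35.8 to 46.0 CPM in control and 13.7 to 24.6 CPM in KO libraries (log2 fold change -1.23, SE 0.130, adjusted p = 0.000271). The summed level of the 20 markers was 406.2 to 471.8 CPM in control and 278.5 to 300.2 CPM in KO libraries. A large share of that sum was Ly6c1, which did not pass the test, and without it the sums were 226.9 to 270.5 CPM in control and 106.1 to 147.5 CPM in KO libraries. The part of these cells in the C1qtnf9 result was not tested, and in bulk samples fewer cells of a type and less RNA per cell cannot be told apart.

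The 3 tested genes whose log2 CPM over the 10 libraries was most like that of C1qtnf9 were Ednrb, the endothelin B receptor (Pearson r = 0.995), Cdh5, the cadherin of endothelial junctions (r = 0.989), and Itgb3, the integrin beta 3 chain (r = 0.989). As deviations from the group means the values were 0.936, 0.854 and 0.851. Spearman's rho was 0.988, 0.939 and 0.915 over the 10 libraries, which share the group difference and the scaling, so the values are a description. The scatter of C1qtnf9 against endothelial markers shows the groups apart on both axes.

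**Figure D2:**
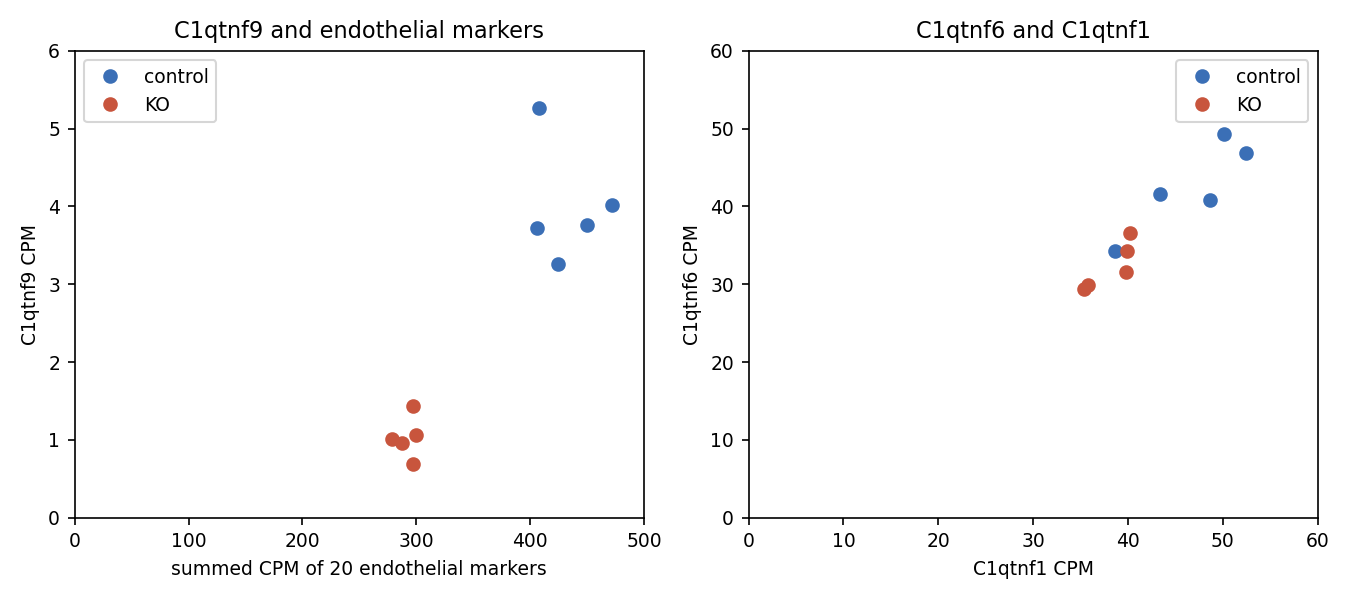
Left, C1qtnf9 CPM against the summed CPM of 20 endothelial markers; right, C1qtnf6 CPM against C1qtnf1 CPM; each point is 1 of 5 control (blue) or 5 KO (red) libraries on linear axes from 0. On the left the groups occupy separate corners, at 278.5 to 300.2 CPM of markers in KO and 406.2 to 471.8 CPM in control, and on the right the points lie along 1 line with control 4 among the KO libraries.

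C1qtnf6 encodes CTRP6, which is known as an inhibitor of the alternative complement pathway. The gene lies at chr15:78523346-78531416 on the minus strand. Control libraries 1 to 5 were at 41.6, 40.8, 49.3, 34.2 and 46.8 CPM, and KO libraries at 29.96, 29.4, 36.6, 34.3 and 31.6 CPM. The groups overlapped, since control 4 was at the level of KO 4, and 3 of 5 KO libraries lay below every control library. The means were 42.6 ± 5.86 and 32.4 ± 3.04 CPM (SD, n = 5 each), a log2 fold change of -0.40 (SE 0.0937, 95% interval -0.60 to -0.19). The call was at the edge of the limit and was lost in 8 of 10 fits that left out 1 library, while the log2 fold change stayed between -0.46 and -0.34. It was kept without control 4 and without KO 3. Of 6 other fits, 4 called C1qtnf6 lower, among them DESeq2 and limma voom, while edgeR with DESeq2 size factors or with the replicate block did not. An antisense gene, Gm49490, shares 117 exonic bases (4.33%) with C1qtnf6 and had 0 to 8 counts.

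C1qtnf1 encodes CTRP1, a member also made by cells of the adipose stroma and vessel wall. It lies at chr11:118428203-118449963 on the plus strand. Control libraries 1 to 5 were at 43.4, 48.6, 50.1, 38.6 and 52.4 CPM, and KO libraries at 35.8, 35.4, 40.2, 39.9 and 39.8 CPM. Control 4 again lay among the KO libraries, and 2 of 5 KO libraries were below every control library. The means were 46.6 ± 5.56 and 38.2 ± 2.40 CPM (SD, n = 5 each), with a log2 fold change of -0.29 (SE 0.0785, 95% interval -0.46 to -0.12). C1qtnf1 was not called by edgeR, but it was called lower by DESeq2, by limma voom and by edgeR without control 4. An antisense gene, Gm11747, overlaps 642 exonic bases (20.5%) of C1qtnf1 and had 0 to 3 counts, and 20.1% of the 50-base stretches of its transcripts recur in other genes.

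C1qtnf6 and C1qtnf1 varied together over the 10 libraries (Pearson r of log2 CPM = 0.947, and 0.877 as deviations from the group means). C1qtnf6 and C1qtnf9 gave r = 0.659 over the libraries, and -0.55 as deviations from the group means. The genes most like C1qtnf6 were Dpt, the matrix protein dermatopontin (r = 0.986, rho = 0.988, deviations 0.9752), Anxa3 (r = 0.9748, rho = 0.9758, deviations 0.942) and Afap1l2 (r = 0.969, rho = 0.952, deviations 0.919). Each was picked for the highest r among all genes tested, so these values are a description. Dpt had a log2 fold change of -0.26 and did not pass the test (edgeR adjusted p = 0.111).

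Some markers of progenitors and fibroblasts were also lower, where 1.86% of all genes tested were called lower. Of 10 such markers tested, 4 were lower and 0 higher in KO: Cd34 (log2 fold change -0.91, adjusted p = 0.00722), Lum (-0.78, adjusted p = 0.00154), Pdgfra (-0.31, adjusted p = 0.00878) and Col1a1 (-0.38, adjusted p = 0.0473), by edgeR. Their summed level was 2883 to 3371 CPM in control and 2476 to 2917 CPM in KO libraries, and none was at 0. The summed level of 8 pericyte and smooth muscle markers was 85.3 to 109.5 CPM in control and 61.1 to 86.0 CPM in KO, with 0 of the 6 tested called. The part of these cells in the C1qtnf6 and C1qtnf1 values was not tested. The summed level of 8 macrophage markers, of which 1 was lower (Cd163) and 0 higher, was 1296 to 2012 CPM in control and 1136 to 1884 CPM in KO libraries. That of 5 mesothelial markers, of which 0 of the 2 tested were called, was 24.2 to 31.2 and 17.2 to 36.8 CPM. Most of the macrophage sum was Lyz2, at a mean of 1116 CPM in control and 1161 CPM in KO libraries. Nearly all of the mesothelial sum was Krt19, at a mean of 25.0 CPM in control and 24.4 CPM in KO libraries. These 2 sums therefore mainly follow single genes.

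C1qtnf12 encodes adipolin, an adipokine known to improve insulin sensitivity. It lies at chr4:155962318-155966629 on the plus strand and has 8 exons. Control libraries 1 to 5 were at 90.7, 91.5, 92.9, 88.7 and 97.7 CPM, and KO libraries at 96.3, 91.9, 94.2, 87.2 and 100.3 CPM. The ranges overlapped almost wholly. The means were 92.3 ± 3.39 and 94.0 ± 4.89 CPM (SD, n = 5 each), with a log2 fold change of 0.03 (SE 0.0449, 95% interval -0.07 to 0.12). This was the narrowest interval of the 6 members tested. The genes most like C1qtnf12 were Gm6822 (r = 0.874, rho = 0.842, deviations 0.869), H2-T23 (r = 0.858, rho = 0.867, deviations 0.893) and Serpinb8 (r = 0.845, rho = 0.721, deviations 0.899). Each was picked for the highest r among all genes tested, and whether unrelated genes reach such values was not tested. The r and rho of these genes were lower than those of the genes named for C1qtnf9 and C1qtnf6, which were picked in the same way. As deviations from the group means, their values were above those of Cdh5 (0.854) and Itgb3 (0.851) with C1qtnf9.

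C1qtnf7 encodes CTRP7 and lies at chr5:43515538-43618803 on the plus strand. Control libraries 1 to 5 were at 3.72, 3.30, 4.37, 1.84 and 2.92 CPM, and KO libraries at 2.78, 2.85, 4.28, 2.93 and 3.16 CPM. The groups overlapped, and KO 3 stood above the other 4 KO libraries. The means were 3.23 ± 0.948 and 3.20 ± 0.619 CPM (SD, n = 5 each), with a log2 fold change of -0.01 (SE 0.203). The 95% interval, -0.45 to 0.43, leaves room for a change in either direction.

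C1qtnf4 encodes CTRP4, which has been studied for its effects on food intake and inflammation. It lies at chr2:90885860-90890525 on the plus strand. Control libraries 1 to 5 held 5, 17, 14, 14 and 14 fragments, and KO libraries held 11, 25, 16, 18 and 26. In CPM these were 0.262, 0.637, 0.658, 0.677 and 0.592 in control and 0.546, 1.098, 0.698, 0.825 and 1.32 in KO, so 4 of 5 KO libraries lay above every control library. The log2 fold change was 0.64 (SE 0.286, 95% interval 0.02 to 1.26), and C1qtnf4 was not called by any tool.

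The other 3 members had too few counts to be tested. C1qtnf2 (chr11:43474276-43491525, plus strand) had 4 to 7 fragments in control and 2 to 9 in KO libraries, 28 and 29 in all. Without the filter its log2 fold change was 0.11 (SE 0.423). C1qtnf3 (chr15:10952332-10980150, plus strand), which encodes cartonectin, had 0 to 4 fragments in control and 0 to 7 in KO libraries, 8 and 12 in all, and no fold is given at that depth. C1qtnf5 (chr9:44107245-44109187, plus strand), mutated in a late-onset retinal degeneration, had 0 counts in all 10 libraries. All 1589 of its exonic bases (100%) lie in exons of Mfrp on the same strand, so a zero here does not measure C1qtnf5. Mfrp itself had 0 to 2 counts.

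The levels of family members were next ordered per kilobase of exon (RPKM, TMM-scaled, GENCODE M21 lengths), so that genes of different length could be compared. In control libraries C1qtnf12 was at 67.6 ± 2.48 RPKM, above 94.99% of the genes tested. C1qtnf6 followed at 15.8 ± 2.17 RPKM and C1qtnf1 at 14.9 ± 1.78 RPKM. C1qtnf9 was at 2.11 ± 0.398, C1qtnf7 at 0.776 ± 0.228, C1qtnf4 at 0.438 ± 0.134, C1qtnf2 at 0.191 ± 0.0304 and C1qtnf3 at 0.0276 ± 0.0252 RPKM (SD, n = 5 each). Neighbours in this order were compared within each of the 10 libraries by an exact sign-flip permutation test (2-sided, 7 pairs, smallest possible p 0.00195), and 4 of 7 pairs passed after adjustment. The order came from the control libraries, which are among the 10, so the direction of each pair was taken from data it was tested on. Pairs with C1qtnf9 also pool its lower KO values. C1qtnf12 was above C1qtnf6 by 2.32 on the log2 RPKM scale in 10 of 10 libraries (exact permutation p adjusted = 0.00456). C1qtnf1 was above C1qtnf9 by 3.60 in 10 of 10, C1qtnf4 above C1qtnf2 by 1.21 in 10 of 10, and C1qtnf2 above C1qtnf3 by 2.02 in 9 of 10 libraries (largest exact permutation p adjusted of the 4 = 0.00684). These logs include a prior count of 2. C1qtnf2 and C1qtnf3 had few counts, so the sizes of their differences depend on it. C1qtnf6 and C1qtnf1 did not differ beyond their spread (0.02, C1qtnf6 higher in 4 of 5 control and 1 of 5 KO libraries), nor did C1qtnf7 and C1qtnf4 (0.37, 7 of 10), with exact permutation p adjusted of 0.438 and 0.156. C1qtnf9 and C1qtnf7 did not pass either over the 10 libraries (0.52, 6 of 10, exact permutation p adjusted = 0.221), but this pools opposite orders, since C1qtnf9 was the higher in 5 of 5 control libraries and in 1 of 5 KO libraries. With coding length in place of exon length, 6 of 7 pairs passed and C1qtnf1 stood above C1qtnf6 in the order. Whether a pair passed thus depended on the length used.

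In KO libraries C1qtnf9 stood below C1qtnf7 and C1qtnf4 rather than above them. It was at 0.543 ± 0.142 RPKM, with C1qtnf7 at 0.769 ± 0.149 and C1qtnf4 at 0.696 ± 0.242 RPKM (SD, n = 5 each). C1qtnf1, at 12.2 ± 0.766 RPKM, and C1qtnf6, at 11.97 ± 1.13 RPKM, also changed places, but this pair changes places in the pooled order as well when coding length replaces exon length. With 5 libraries the exact test cannot go below p = 0.0625, so neither group's own order was tested.

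**Figure D3:**
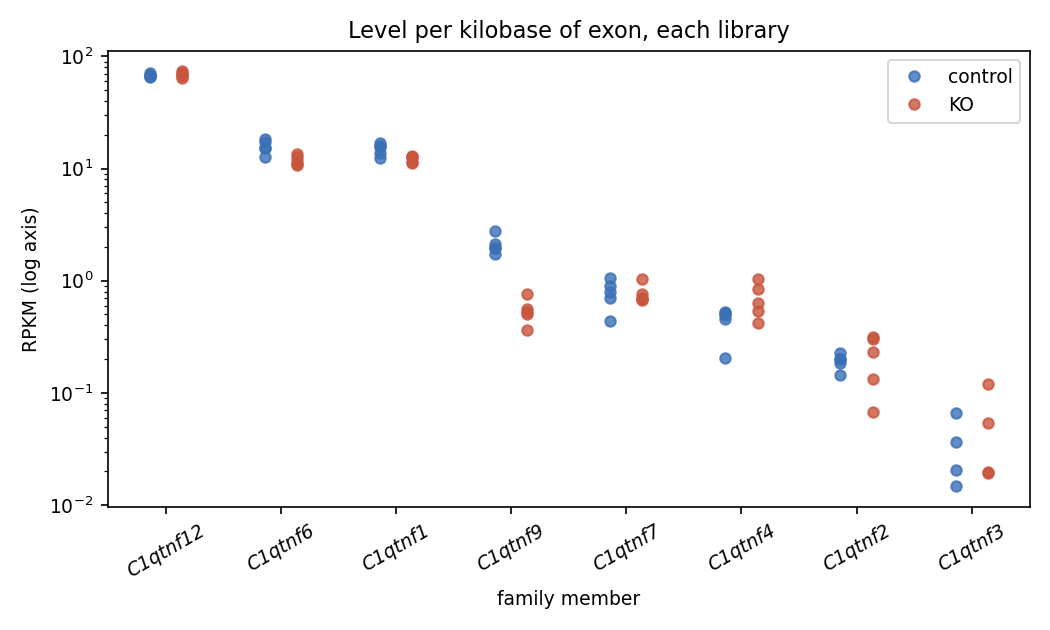
RPKM on a log axis of 8 family members in each control (blue) and KO (red) library, members ordered by their control mean; the 2 libraries with 0 counts of C1qtnf3 are not drawn. C1qtnf12 is highest at 67.6 RPKM in control, C1qtnf6 and C1qtnf1 lie side by side, and the KO points of C1qtnf9 lie at the level of C1qtnf7 and C1qtnf4.

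Summed over the 9 members, the family was at 189.6 ± 14.2 CPM in control (169.6 to 205.0) and 170.1 ± 6.93 CPM in KO libraries (162.0 to 177.5), and the ranges overlapped. C1qtnf12 gave 48.8% ± 2.29 of the family's counts in control and 55.3% ± 2.31 in KO libraries. C1qtnf1 gave 24.5% ± 1.29 and 22.5% ± 0.985, and C1qtnf6 gave 22.4% ± 1.59 and 19.02% ± 1.48. C1qtnf9 gave 2.14% ± 0.553 and 0.608% ± 0.163 (SD, n = 5 each). C1qtnf12 itself was not called, and a share depends on the other members too.

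Among 22 other genes whose proteins carry a C1q domain, 13 were tested, with a median log2 fold change of -0.04. In KO 2 were lower and 0 higher, against 1.86% and 0.308% of all genes tested. Both that fell encode multimerins, large C1q-domain proteins of endothelium and platelets. Mmrn2 was at 2.78 to 5.20 CPM in control and 1.27 to 1.80 CPM in KO libraries (log2 fold change -1.39, SE 0.182, edgeR adjusted p = 0.00111), and it also stands among the endothelial markers above. Mmrn1 was at 2.47 to 4.33 CPM in control and 1.15 to 1.83 CPM in KO libraries (-1.34, SE 0.198, adjusted p = 0.00264). For both genes, as for C1qtnf9 and 2.66% of all genes tested, no KO library reached the lowest control library. Adiponectin itself, Adipoq, was at 1759 ± 81.2 and 1820 ± 41.5 CPM (log2 fold change 0.05, SE 0.0428, edgeR adjusted p = 0.743). The complement chain C1qb, made by macrophages, was at 84.7 to 151.7 and 88.4 to 161.2 CPM (0.05, SE 0.178, edgeR adjusted p = 0.962). C1ql4, Cbln4 and Otol1 had 0 counts in every library.

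Of 10 receptors and binding partners ascribed to adiponectin or to CTRPs, 7 were tested, 1 was lower and 0 higher in KO, against 1.86% and 0.308% of all genes tested. Cdh13, T-cadherin, which holds adiponectin on endothelial and muscle cells, was at 24.1 to 26.1 CPM in control and 13.8 to 19.1 CPM in KO libraries (log2 fold change -0.69, SE 0.0802, edgeR adjusted p = 0.000555). The receptors Adipor1 (0.09, SE 0.0343, adjusted p = 0.277) and Adipor2 (0.07, SE 0.0378, adjusted p = 0.492, both edgeR) did not pass. The part of the endothelial cells described above in the Cdh13, Mmrn1 and Mmrn2 values was not tested. Adgrb3 and Rxfp1, with at most 5 and 4 counts in any library, were too low to test, as was Mfrp. The plot of log2 fold changes sets these genes beside the family.

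**Figure D4:**
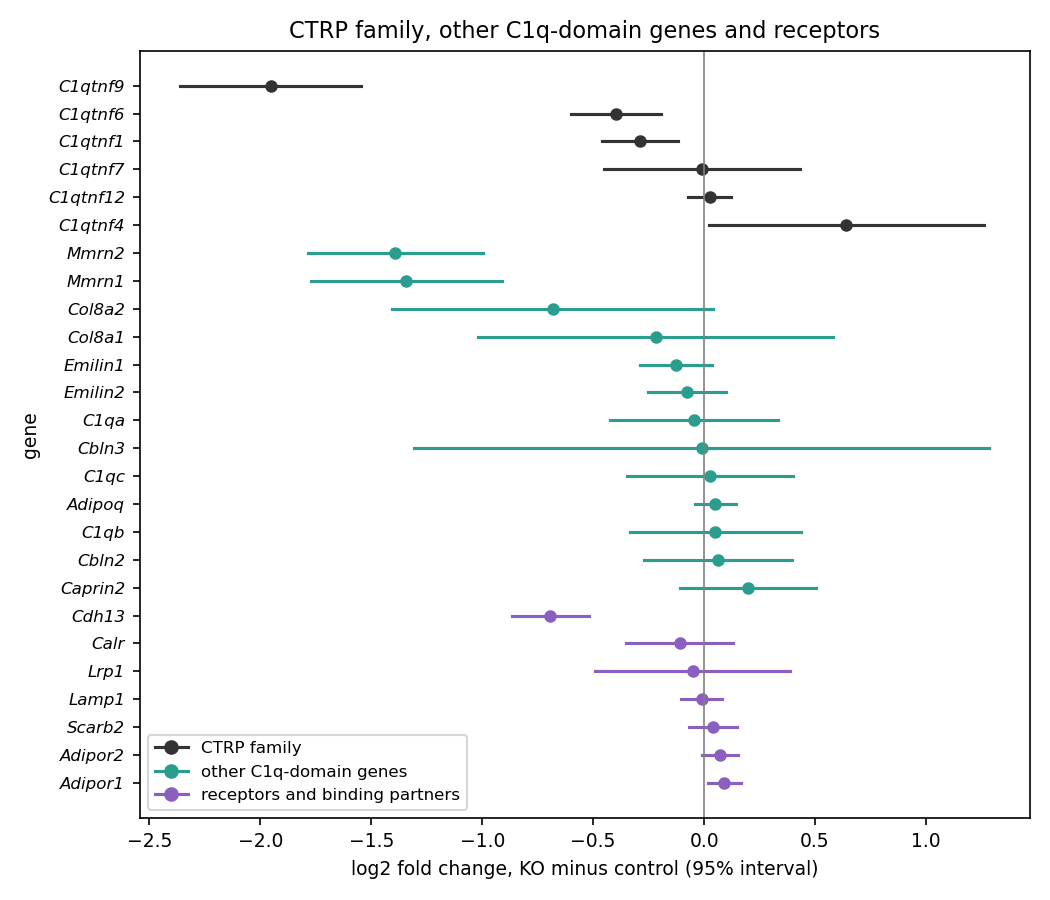
Log2 fold change, KO minus control, with its 95% interval for the 6 CTRP members tested (black), 13 other C1q-domain genes (green) and 7 receptors and binding partners (purple). C1qtnf9 at -1.95, Mmrn2 at -1.39, Mmrn1 at -1.34 and Cdh13 at -0.69 stand to the left with intervals below 0, Col8a2 lies at -0.68 with an interval of -1.41 to 0.04, while Adipoq, C1qtnf12, Adipor1 and Adipor2 lie within 0.1 of 0.

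AMPK is the kinase through which adiponectin and several CTRPs are known to act on metabolism. Of 14 genes of AMPK and its upstream kinases and adaptors, 13 were tested, 0 were lower and 1 was higher in KO, with a median log2 fold change of 0.04. The shares over all genes tested were 1.86% lower and 0.308% higher. Prkab2, a regulatory beta subunit, was at 79.1 to 94.9 CPM in control and 96.8 to 112.8 CPM in KO libraries (log2 fold change 0.25, SE 0.0575, edgeR adjusted p = 0.041). All KO libraries lay above all control libraries, as for 1.31% of all genes tested, but the call was lost in 7 of 10 fits that left out 1 library. The catalytic subunits Prkaa1 (0.04, SE 0.0495, adjusted p = 0.871) and Prkaa2 (0.06, SE 0.0976, adjusted p = 0.901) did not pass, and neither did the adaptor Appl1 (0.04, SE 0.0712, adjusted p = 0.913, all edgeR).

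The collagen-like stalk of the CTRPs passes through enzymes and chaperones of the endoplasmic reticulum. All 15 genes of this list were tested, 2 were lower and 0 higher in KO, with a median log2 fold change of -0.07. Over all genes tested, 1.86% were called lower and 0.308% higher. Plod2, a lysyl hydroxylase, was at 128.9 to 157.4 CPM in control and 90.3 to 111.8 CPM in KO libraries (log2 fold change -0.48, SE 0.0710, edgeR adjusted p = 0.00292). Fkbp10, a prolyl isomerase that assists collagen folding, was at 51.0 to 64.8 CPM in control and 43.5 to 50.5 CPM in KO libraries (-0.29, SE 0.0648, edgeR adjusted p = 0.0326), and its call was lost in 7 of 10 fits that left out 1 library. Erp44, which retains adiponectin in the early secretory pathway, was at 78.1 ± 2.35 and 76.7 ± 3.05 CPM (SD, n = 5 each). Its partner Ero1a was at 667.4 to 1013 CPM in control and 872.3 to 973.6 CPM in KO libraries. Neither passed the test (edgeR adjusted p = 0.901 and 0.345).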

How the data were processed

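From SMARTer v4 cDNA tagged with Nextera XT, the authors aligned read pairs to GRCm38 using STAR and deposited the counts per gene that featureCounts gave, without normalization. The strand setting is not given in the sources used here. Of 52125 gene identifiers shared with GENCODE M21, 89.6% carried a version exactly 1 above it, so the authors' annotation was a later one, and positions and lengths here are those of M21. Each of the 10 columns matched 1 library. No 2 libraries of the same group were alike within sampling noise (smallest chi-square per degree of freedom between replicates 3.517).

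Low genes were removed (edgeR 4.0.16, filterByExpr, minimum count 10), counts were scaled by TMM and groups of 5 were compared by its quasi-likelihood F-test, adjusted after Benjamini-Hochberg over all genes tested. The common biological coefficient of variation was 9.35%. Likeness and the order of levels used log2 CPM with a prior count of 2. DESeq2 1.42.0, limma voom 3.58.1 (R 4.3.3), other scaling and filters, a replicate block and each library left out were alternatives. The fits were checked on simulated counts. The members and all gene lists were chosen with earlier results of these data known. Named are all members, Fam20c, some overlapping genes, and the 3 genes most like each called member and C1qtnf12. List genes past the limit are all named, except among the endothelial markers, where only some are. Other list genes are named as examples, chosen after their values were seen.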

Additional observations from a re-analysis of the deposited data

Results flagged for a closer look

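In groups of 5 libraries, 3 values of 38 groups examined stood far from the rest of their own group, where chance gives about 1.9. C1qtnf4 in control 1 was at 0.262 CPM, with the other 4 control libraries at 0.592 to 0.677 CPM. C1qtnf7 in KO 3 was at 4.28 CPM, with the other 4 KO libraries at 2.78 to 3.16 CPM. The summed level of pericyte and smooth muscle markers in KO 3 was 61.1 CPM, with the other 4 KO libraries at 79.2 to 86.0 CPM.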

How the results depend on the processing

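C1qtnf9, Mmrn1, Mmrn2, Cdh13 and Plod2 kept their direction and their call in 10 of 10 fits that left out 1 library and in 6 of 6 other fits. With each library left out, members called lower numbered 1 to 3, AMPK genes called higher 0 to 2, collagen-assembly genes called lower 1 to 3 and higher 0 to 1, and all genes called lower 164 to 323 and higher 19 to 119. Both highest counts over all genes came without control 4, where C1qtnf1 joined C1qtnf9 and C1qtnf6 among members called lower. DESeq2 size factors left 1 member called lower, C1qtnf9. The replicate block left 1 member and 1 collagen-assembly gene called lower, 0 AMPK genes called higher and 21 genes called higher in all. As deviations from group means, same-numbered libraries correlated at -0.25 to 0.263, with 1 of 5 numbers its own best partner. So few libraries cannot decide whether the numbers pair the samples. DESeq2 called 2 AMPK genes higher and 125 genes higher in all, and limma voom called 1 collagen-assembly gene and 111 genes higher. The order of levels gave 0 pairs past the limit in control or KO libraries alone, where the test cannot pass, and 6 with coding length. On the log2 scale, left-out libraries moved the marker sums to -0.057 to 0.12 for macrophages and -0.19 to 0.084 for mesothelium, and to -0.25 to -0.19 for progenitors and fibroblasts and -0.27 to -0.16 for pericytes and smooth muscle. Leaving Ly6c1 out, an alternative chosen after seeing the data, moved the endothelial sum from -0.56 to -1.06. No cause of these shifts was tested. Counts of C1qtnf2, C1qtnf3 and C1qtnf4 limit what can be seen of them.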
